A study of Homo sapiens with 6 samples.

Results

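The autophagy machinery was taken as 38 genes listed by symbol, from the kinase that starts autophagosome formation to the proteins that bring the finished vesicle to the lysosome. All 38 were found among the 17513 genes measured, and all 38 were among the 13555 genes abundant enough to test. The list was drawn up by function, with earlier results of these data known, and it leaves out some relatives such as SQSTM1 and MAP1LC3A, which are given beside it. RNA sequencing was done on 6 libraries, 3 per medium. Of these, 3 came from cells that had grown in medium conditioned by KYSE150 cells carrying the hairpin shSPP1#2, directed at SPP1, and 3 from cells in medium of KYSE150 cells carrying the control hairpin shNC. KYSE150 is a human esophageal squamous carcinoma line. By the series description the sequenced cells were macrophages made from the monocytic leukemia line THP1, after 48 h in either medium, whereas the labels of the single libraries name KYSE150 itself. The hairpin was thus carried by the cells that made the medium, 1 hairpin against SPP1 was compared, and a line-derived macrophage is a model of a tissue macrophage. The question was whether SPP1, which encodes the secreted protein osteopontin, acts from tumor cells on macrophages.

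Autophagy encloses cytoplasm in a double membrane that then fuses with the lysosome. The ULK1 kinase complex starts the process, the class III PI3K complex marks the membrane with PI3P, ATG9A vesicles and ATG2 lipid transfer enlarge it, and a ubiquitin-like conjugation system attaches ATG8 proteins (the LC3 and GABARAP families) to its lipid. Cargo receptors bind ATG8 proteins on one side and ubiquitin-tagged cargo on the other. In macrophages the same proteins serve the clearance of engulfed microbes and restrain inflammatory signaling. Much of the control of autophagy acts on proteins by phosphorylation and lipid attachment, which transcript levels do not show.

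The libraries held 20202142 to 20626346 estimated counts, except shNC replicate 2, which was shallower at 18113591. SPP1 in the sequenced cells measured 2061, 2014 and 1932 FPKM in shSPP1#2 medium, against 2075, 2011 and 1890.4 FPKM in shNC medium. FPKM is the number of fragments scaled by transcript length and by library total. This SPP1 is the transcript of the receiving cells, so it does not check the knockdown in the donors of the medium. Of 14 macrophage markers, 13 reached 1 FPKM in every library, and their summed level was 2553 to 2627 FPKM in shSPP1#2 medium and 2617 to 2820 FPKM in shNC medium. Of the 13 macrophage markers tested, 9 had negative log2 fold changes, 2 were lower at an unadjusted p below 0.05 and none was called by edgeR. FCER1G, AIF1 and CD163 were lower in shSPP1#2 medium with groups apart (5.5% of all genes were apart in that direction), and their part in the results was not tested. MRC1, a marker of alternatively activated macrophages, was near 0 at 0.01 to 0.03 FPKM. None of 13 squamous epithelial markers reached 1 FPKM in any library. Their summed level was 1.47 to 2.07 FPKM in shSPP1#2 medium and 1.44 to 1.90 FPKM in shNC medium, and KRT5, KRT14 and EPCAM were at or below 0.04 FPKM. The expression thus fitted the series description and went against the library labels, and no sample was moved. Of the fibroblast markers 3 of 8 reached 1 FPKM (COL1A1, PDGFRA and PDGFRB). Of the endothelial markers 1 of 5 did, PECAM1 at 132.1 to 142.5 FPKM, while VWF, CDH5, KDR and TEK stayed below 1 FPKM. Of the T and NK cell markers 1 or 2 of the 3 measured reached it, and of the B cell markers 0 of 4. The summed level of each of these lists overlapped between the media, and 2 fibroblast markers were lower at an unadjusted p below 0.05.

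All steps of the pathway were transcribed in these cells. The median member lay at 15.9 FPKM, against 3.42 FPKM for all 17513 genes, both as means over the 6 libraries. The larger set also holds genes too low to test, whereas every member was tested, so the sets are unlike. GABARAPL2 and MAP1LC3B led with mean levels of 99.99 and 99.1 FPKM, and GABARAP and WIPI1 followed at 63.8 and 61.7 FPKM. ULK2, a second ULK kinase, was the lowest at 0.06 to 0.14 FPKM, which corresponds to 10.8 to 26.5 estimated counts, so its values say little. The next lowest members were ATG10 at 1.73 to 2.38 FPKM, ATG2B at 2.09 to 2.30 FPKM and ATG4C at 2.18 to 2.76 FPKM. Between neighbours in the order of mean FPKM, 27 of 37 pairs overlapped in their range over the 6 libraries and 10 did not. The gaps set apart GABARAPL2 and MAP1LC3B at the top, then GABARAP and WIPI1, and then 7 members from TAX1BP1 (44.9 FPKM) to ATG7 (32.3 FPKM), whose neighbours overlapped.

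**Figure D1:**
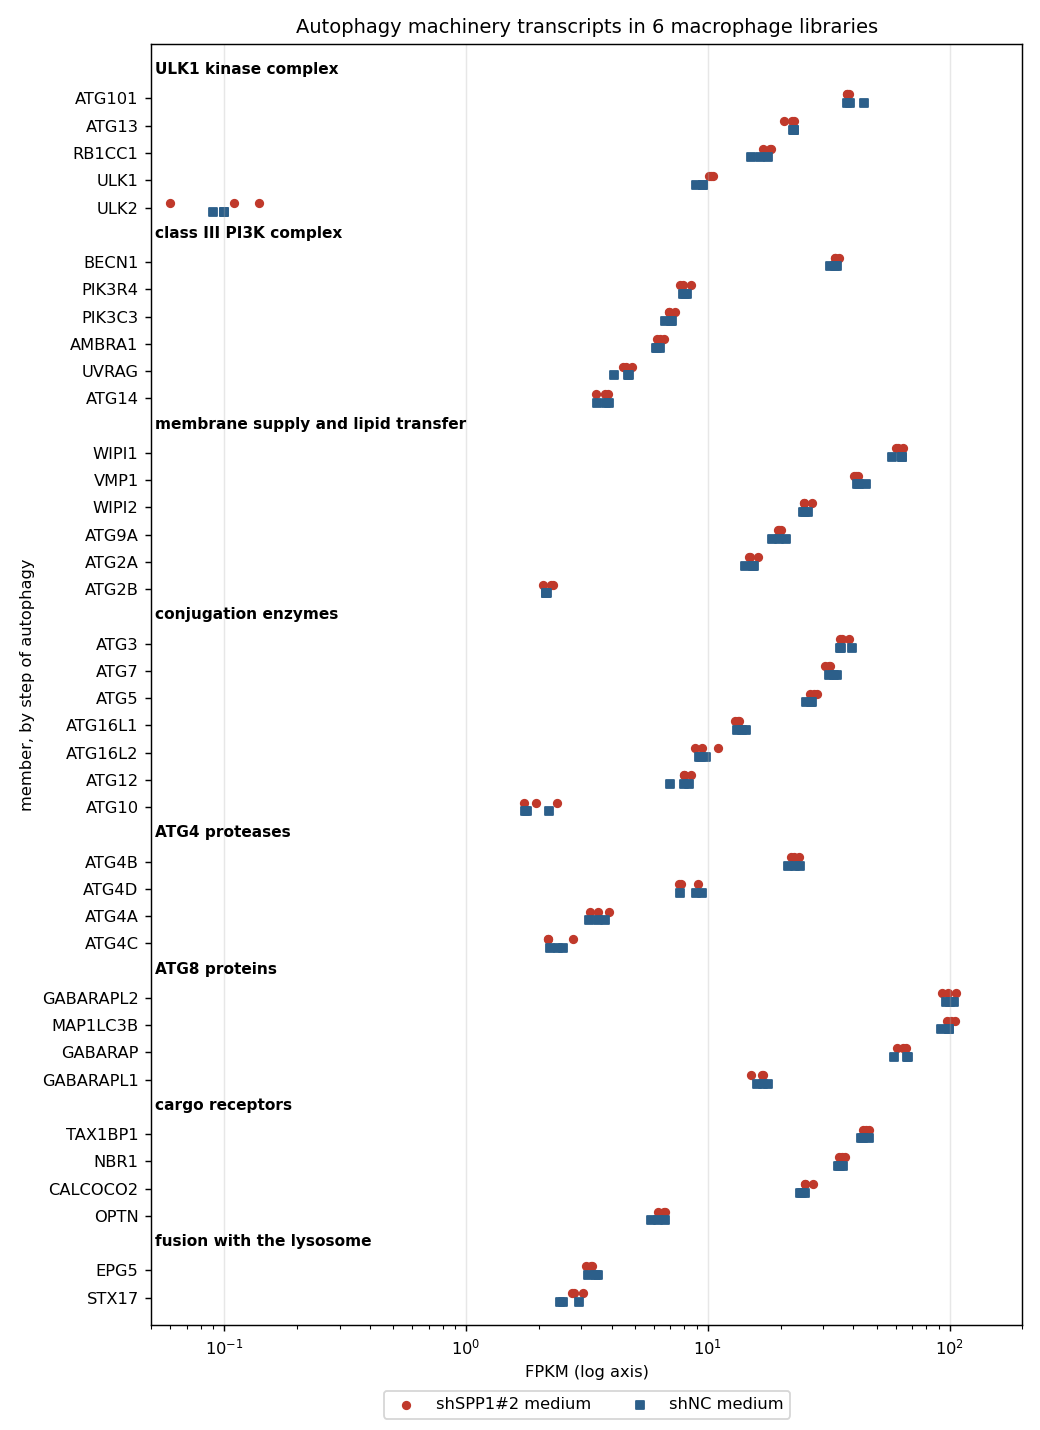
FPKM of each of the 38 members on a log axis, grouped by step of autophagy, with red circles for the 3 libraries in shSPP1#2 medium and blue squares for the 3 libraries in shNC medium. The ATG8 transcripts GABARAPL2 and MAP1LC3B lie highest and ULK2 lowest, and the symbols of both media overlap for nearly all members.

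No member passed the test between the media. The edgeR quasi-likelihood test called 0 of 38 members at an adjusted p below 0.05, and over all genes it called 0 of 13555 (0%). At an unadjusted p below 0.05, 1 member (ULK1) was higher in shSPP1#2 medium and 0 were lower, beside 3.45% of all genes higher and 3.39% lower. Groups were counted as apart where every library of one medium lay beyond every library of the other in normalised counts scaled to library size (CPM). By that count 1 member (ULK1) was apart upward and 1 (VMP1) downward, beside 5.63% and 5.5% of all genes. These shares were close to the background or below it. The log2 fold changes were positive for 23 members and negative for 15. Their median was 0.01, against -0.0003 for all genes, and their range ran from -0.10 for ATG101 to 0.18 for ATG10. Adjusted p ran from 0.663 to 1.0 in edgeR. In bulk RNA, fewer cells of a type and less RNA per cell cannot be told apart.

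The precision limits what could have gone unseen. The median standard error of a member was 0.05 on the log2 scale, against 0.08 for all tested genes. The 95% interval of the log2 fold change lay within 0.25 of zero for 34 members. ATG4C and STX17 had intervals within 0.5, and ATG10 and ULK2 wider ones. A p that misses the threshold does not show that the levels were equal. For most members these intervals bound the difference only as far as the spread between these libraries goes. That spread may be technical alone, as the labels do not say whether replicates were separate cultures. The intervals may thus be too narrow for the effect of the medium.

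**Figure D2:**
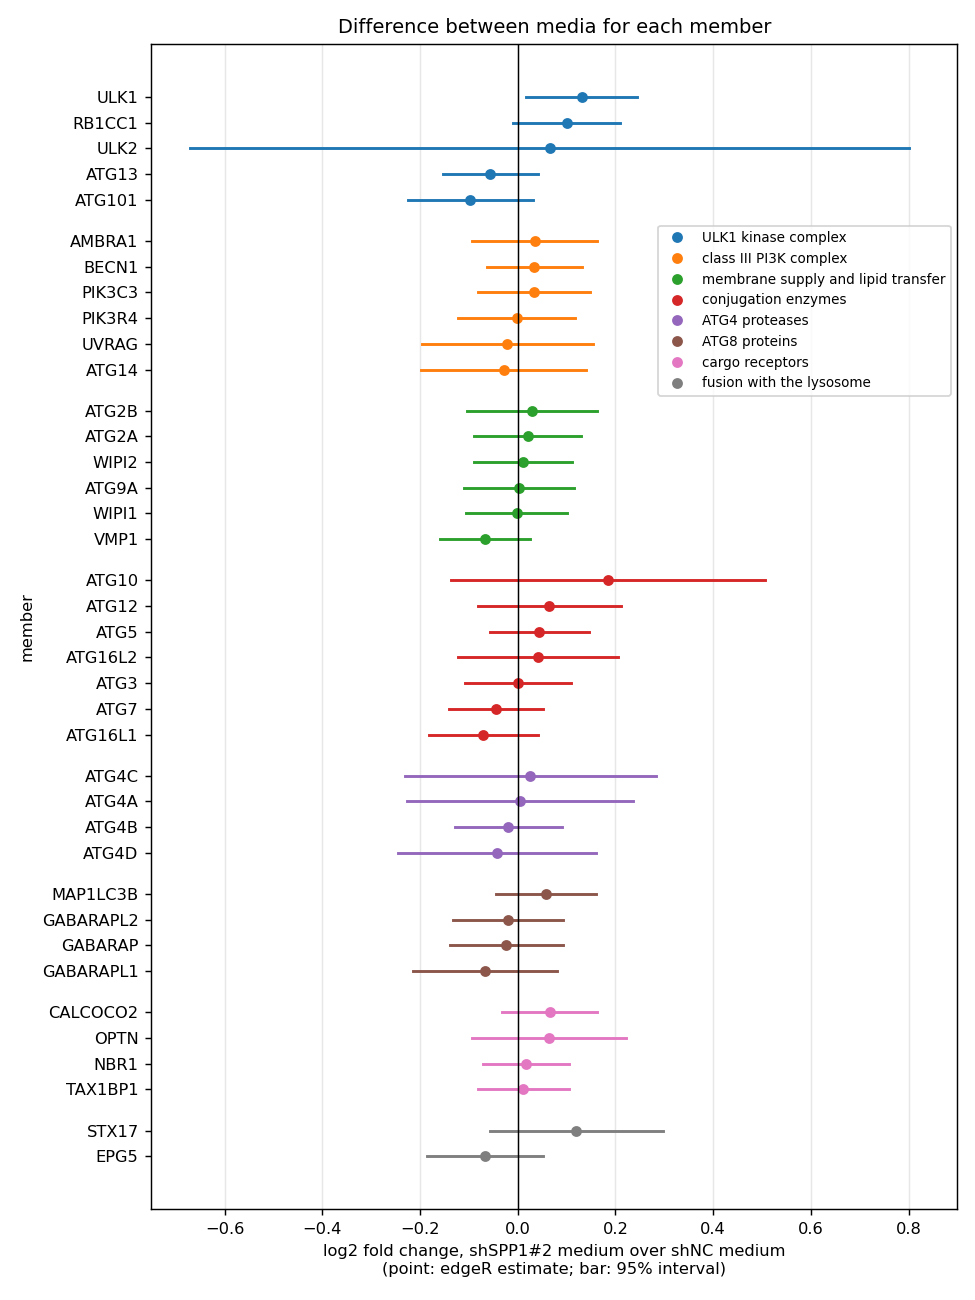
Log2 fold change of each member, shSPP1#2 medium over shNC medium, with points for the edgeR estimate and bars for the 95% interval, coloured by step. The interval of ULK1 alone does not include 0, and those of ULK2 and ATG10 are the widest.

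In the ULK1 kinase complex, 3 of 5 members had positive and 2 negative log2 fold changes, with a median of 0.07 and none called. ULK1 is the serine/threonine kinase that nutrient signals act on to start autophagy, and it lies on chromosome 12 (131894651 to 131923167, plus strand). Gene positions are from GENCODE v29 on GRCh38, and the promoter windows given further below are from RefSeq. ULK1 measured 10.2, 10.5 and 10.3 FPKM in shSPP1#2 medium, against 8.91, 9.51 and 9.56 FPKM in shNC medium. The 3 libraries in shSPP1#2 medium lay above the 3 in shNC medium, with shNC replicate 1 the lowest. The log2 fold change was 0.13 (95% interval 0.02 to 0.24, unadjusted p = 0.0262, adjusted p = 0.663 in edgeR). Without shNC replicate 1 it was 0.09 (unadjusted p = 0.149 in edgeR), and without shSPP1#2 replicate 2 it was 0.11 (unadjusted p = 0.0884 in edgeR). DESeq2 gave an unadjusted p of 0.0668.

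ATG101, which stabilises ATG13 in the complex, was its most abundant transcript and lies on chromosome 12 (52069246 to 52077494, plus strand). ATG101 measured 37.6, 38.3 and 37.6 FPKM in shSPP1#2 medium, against 37.8, 44.2 and 38.9 FPKM in shNC medium. The groups overlapped, and shNC replicate 2 was the high library. The log2 fold change was -0.10 (95% interval -0.22 to 0.03, adjusted p = 0.822 in edgeR). Leaving out shNC replicate 2 gave -0.02, and leaving out shNC replicate 1 gave -0.15. An antisense gene covers 19.2% of its exonic bases, and no source used here states whether the authors' counting used strand. The scaffold RB1CC1, also called FIP200, and ATG13, the subunit that joins the kinase to it, had log2 fold changes of 0.10 and -0.06. The ratio of ATG13 to ULK1, both in FPKM, was 2.04, 2.15 and 2.17 in shSPP1#2 medium, against 2.53, 2.38 and 2.38 in shNC medium. The ratio of ATG101 to ULK1 was likewise apart, while that of RB1CC1 to ULK1 overlapped between the media. All ratios examined for other complexes and families overlapped too, and no share over all genes was computed for ratios. The ratios to ULK1 rest on the same ULK1 values and were chosen after those values were seen.

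In the class III PI3K complex, 3 of 6 members had positive and 3 negative log2 fold changes, with a median of 0.02 and none called. BECN1, the regulatory subunit Beclin 1, was both the most abundant member of the complex and the one of smallest p. It lies on chromosome 17 (42810134 to 42833350, minus strand), and genes on the opposite strand cover 17.1% of its exonic bases. BECN1 measured 33.7, 33.4 and 35.0 FPKM in shSPP1#2 medium, against 34.1, 31.9 and 33.5 FPKM in shNC medium. The groups overlapped, with a log2 fold change of 0.03 (95% interval -0.06 to 0.13, adjusted p = 0.939 in edgeR). The lipid kinase PIK3C3 and its anchor PIK3R4 stood near each other at 6.67 to 7.33 FPKM and 7.69 to 8.51 FPKM. BECN1 was 4.47 to 5.12 times as abundant as PIK3C3 per length over the 6 libraries. The subunits that direct the complex, ATG14 to the autophagosome and UVRAG to endosomes, measured 3.45 to 3.92 FPKM and 4.09 to 4.86 FPKM. AMBRA1, which links the complex to ULK1 and to ubiquitin ligases, measured 6.11 to 6.57 FPKM. The estimates for these 5 members lay between -0.03 and 0.04 on the log2 scale.

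Among the genes for membrane supply and lipid transfer, 4 of 6 had positive and 2 negative log2 fold changes, with a median of 0.01 and none called. WIPI1, which reads PI3P on the forming membrane, was the most abundant and lies on chromosome 17 (68420948 to 68457513, minus strand). WIPI1 measured 60.2, 64.1 and 61.0 FPKM in shSPP1#2 medium, against 63.7, 63.5 and 58.0 FPKM in shNC medium. The groups overlapped fully, and the log2 fold change of -0.0025 had a 95% interval of -0.11 to 0.10 (adjusted p = 0.998 in edgeR). Opposite-strand genes, mainly ARSG, cover 28.1% of its exonic bases.

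VMP1, an endoplasmic reticulum protein that moves lipids between membrane leaflets, lies on chromosome 17 (59707192 to 59842255, plus strand), and its exonic bases overlap the microRNA gene MIR21. VMP1 measured 40.4, 41.0 and 41.8 FPKM in shSPP1#2 medium, against 45.0, 41.6 and 42.2 FPKM in shNC medium. In CPM its 3 libraries in shSPP1#2 medium lay below the 3 in shNC medium, but in FPKM shSPP1#2 replicate 3 lay above shNC replicate 2, so the groups overlapped. The log2 fold change was -0.07 (95% interval -0.16 to 0.02, adjusted p = 0.836 in edgeR), and without shNC replicate 1 it was -0.04. WIPI2, the PI3P reader that recruits ATG16L1, measured 24.7 to 27.0 FPKM, and ATG9A, the scramblase of the seed vesicles, 18.4 to 20.96 FPKM. Of the lipid transfer proteins, ATG2A measured 14.3 to 16.1 FPKM and ATG2B 2.09 to 2.30 FPKM. Their estimates lay between 0.0022 for ATG9A and 0.03 for ATG2B, and a same-strand neighbour covers 38.8% of the exonic bases of ATG9A.

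Among the conjugation enzymes, 5 of 7 had positive and 2 negative log2 fold changes, with a median of 0.04 and none called. ATG3, the E2-like enzyme that hands ATG8 proteins to the lipid, was the most abundant and lies on chromosome 3 (112532509 to 112562046, minus strand). ATG3 measured 38.3, 35.1 and 35.9 FPKM in shSPP1#2 medium, against 39.5, 35.2 and 35.5 FPKM in shNC medium. Replicate 1 was the high library in both media, and the log2 fold change of 0.0005 had a 95% interval of -0.11 to 0.11 (adjusted p = 1.0 in edgeR). ATG16L1, which with ATG12 and ATG5 sets where lipid attachment takes place, had the smallest p of this step and lies on chromosome 2 (233210051 to 233295674, plus strand). ATG16L1 measured 13.5, 12.9 and 13.3 FPKM in shSPP1#2 medium, against 13.9, 13.2 and 14.3 FPKM in shNC medium. The groups overlapped, with a log2 fold change of -0.07 (95% interval -0.18 to 0.04, adjusted p = 0.870 in edgeR).

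The E1-like enzyme ATG7 measured 30.5 to 34.4 FPKM and its E2-like partner for ATG12, ATG10, only 1.73 to 2.38 FPKM. ATG7 was 13.5 to 19.6 times as abundant as ATG10 per length over the 6 libraries. ATG5 (25.5 to 28.2 FPKM) was 3.19 to 3.83 times as abundant as ATG12 (6.99 to 8.51 FPKM), the modifier it is joined to. ATG16L2, a relative of ATG16L1, measured 8.89 to 11.1 FPKM. The log2 fold change of ATG10 on counts was the largest of the members at 0.18, with a 95% interval of -0.14 to 0.51 (adjusted p = 0.886 in edgeR), on 60.8 to 79.0 estimated counts per library. On log2(FPKM + 1) it was 0.05, below the 0.13 of ULK1, and on log2(FPKM + 0.1) it was 0.07, below 0.14. The added constant shrinks the difference of a gene as low as ATG10 more than that of ULK1.

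The ATG4 proteases trim ATG8 proteins before attachment and release them from the membrane afterwards. Of these, 2 of 4 had positive and 2 negative log2 fold changes, with a median of -0.0078 and none called. ATG4B, the most abundant, lies on chromosome 2 (241637213 to 241673857, plus strand). ATG4B measured 22.04, 23.7 and 22.7 FPKM in shSPP1#2 medium, against 23.96, 23.0 and 21.5 FPKM in shNC medium. The groups overlapped, with a log2 fold change of -0.02 (95% interval -0.13 to 0.09, adjusted p = 0.973 in edgeR). ATG4D had the smallest p of this step and lies on chromosome 19 (10543895 to 10553418, plus strand), where KRI1 on the opposite strand covers 15% of its exonic bases. ATG4D measured 7.62, 9.15 and 7.73 FPKM in shSPP1#2 medium, against 8.92, 7.67 and 9.45 FPKM in shNC medium. High and low libraries were found in both media, and the log2 fold change was -0.04 (95% interval -0.25 to 0.16, adjusted p = 0.964 in edgeR). ATG4A and ATG4C measured 3.22 to 3.92 FPKM and 2.18 to 2.76 FPKM.

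Of the ATG8 proteins on the list, 1 of 4 had a positive and 3 negative log2 fold changes, with a median of -0.02 and none called. GABARAPL2, also called GATE-16, lies on chromosome 16 (75566351 to 75577881, plus strand). GABARAPL2 measured 106.4, 98.6 and 93.4 FPKM in shSPP1#2 medium, against 100.03, 104.7 and 96.9 FPKM in shNC medium. The groups overlapped, with a log2 fold change of -0.02 (95% interval -0.13 to 0.09, adjusted p = 0.973 in edgeR). MAP1LC3B, the LC3B protein commonly used to mark autophagosomes, had the smallest p of this step and lies on chromosome 16 (87383995 to 87404779, plus strand). MAP1LC3B measured 105.3, 101.1 and 97.2 FPKM in shSPP1#2 medium, against 99.7, 99.3 and 91.8 FPKM in shNC medium. Replicate 3 was the lowest library of each medium and the groups overlapped. The log2 fold change was 0.06 (95% interval -0.04 to 0.16, adjusted p = 0.888 in edgeR). Its near copy MAP1LC3B2 matches 601 of 2688 bases at 97.3% identity, so reads could be divided between them. GABARAP measured 59.2 to 67.1 FPKM and GABARAPL1 15.2 to 17.8 FPKM, with log2 fold changes of -0.02 and -0.07. Other genes cover 30.5% of the exonic bases of GABARAP on the same strand and 25.2% on the opposite strand.

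Of the cargo receptors on the list, 4 of 4 had positive log2 fold changes, with a median of 0.04 and none called. TAX1BP1, a ubiquitin-binding receptor, was the most abundant and lies on chromosome 7 (27739331 to 27844564, plus strand). TAX1BP1 measured 46.5, 43.7 and 45.2 FPKM in shSPP1#2 medium, against 46.6, 43.2 and 44.0 FPKM in shNC medium. The groups overlapped fully, with a log2 fold change of 0.01 (95% interval -0.08 to 0.10, adjusted p = 0.980 in edgeR). CALCOCO2, also called NDP52, which binds cytosolic bacteria and damaged mitochondria, lies on chromosome 17 (48830988 to 48866522, plus strand). CALCOCO2 measured 27.1, 25.3 and 25.2 FPKM in shSPP1#2 medium, against 25.3, 24.6 and 24.2 FPKM in shNC medium. The groups met at 25.2 to 25.3 FPKM, and the log2 fold change was 0.07 (95% interval -0.03 to 0.16, adjusted p = 0.862 in edgeR). NBR1, a receptor for protein aggregates and peroxisomes, measured 34.7 to 36.8 FPKM, and OPTN, a receptor in mitophagy and antibacterial autophagy, 5.80 to 6.67 FPKM.

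Fusion with the lysosome was represented by a SNARE and a tether. STX17, the SNARE that autophagosomes acquire once closed, lies on chromosome 9 (99906633 to 99970341, plus strand). STX17 measured 3.05, 2.75 and 2.79 FPKM in shSPP1#2 medium, against 2.45, 2.51 and 2.93 FPKM in shNC medium. The groups overlapped through shNC replicate 3, and the log2 fold change was 0.12 (95% interval -0.06 to 0.30, adjusted p = 0.856 in edgeR). It was 0.21 without shNC replicate 3 (unadjusted p = 0.0349 in edgeR), 0.06 without shNC replicate 1 and 0.07 without shSPP1#2 replicate 1. EPG5, the tether, lies on chromosome 18 (45847609 to 45967339, minus strand). EPG5 measured 3.32, 3.28 and 3.13 FPKM in shSPP1#2 medium, against 3.46, 3.19 and 3.51 FPKM in shNC medium. The groups overlapped, with a log2 fold change of -0.07 (95% interval -0.19 to 0.05, adjusted p = 0.886 in edgeR).

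In the ULK, ATG2, ATG4 and ATG16L families, 1 transcript held most of the family sum of FPKM. ULK1 made up 99.0% ± 0.40 of the ULK1 and ULK2 sum in shSPP1#2 medium and 99.0% ± 0.09 in shNC medium (SD, n = 3 each, as for all shares here). ATG2A made up 87.4% and 87.5% of the ATG2 sum, and ATG4B 61.8% and 61.1% of the ATG4 sum. ATG16L1 held 57.5% ± 2.5 in shSPP1#2 medium and 59.3% ± 1.0 in shNC medium of the ATG16L sum. The ATG8 family was spread more evenly, and its 6 measured transcripts included MAP1LC3A and MAP1LC3B2. In shSPP1#2 medium MAP1LC3B held 27.8%, GABARAPL2 27.3%, MAP1LC3A 18.4% and GABARAP 17.4% of the sum, and in shNC medium they held 26.5%, 27.5%, 18.9% and 17.6%. GABARAPL1 held 4.42% to 4.49% in shSPP1#2 medium and 4.58% to 4.67% in shNC medium, the only ATG8 share whose groups did not overlap. All shares of the other families overlapped, as did GABARAPL1 itself in CPM and in FPKM. In CPM, 5.5% of all genes were apart downward, and no such background was computed for family shares. The difference in the GABARAPL1 share was not tested. AC018946.2, which is not among the genes measured, matches 1526 of 2294 bases of GABARAPL1 at 92.6% identity. The part of such near copies in the GABARAPL1 values was not tested. Among the receptors, SQSTM1, which is p62 and not on the list, held 54.6% ± 2.0 in shSPP1#2 medium and 54.7% ± 0.6 in shNC medium of the sum with TAX1BP1, NBR1, CALCOCO2 and OPTN.

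**Figure D3:**
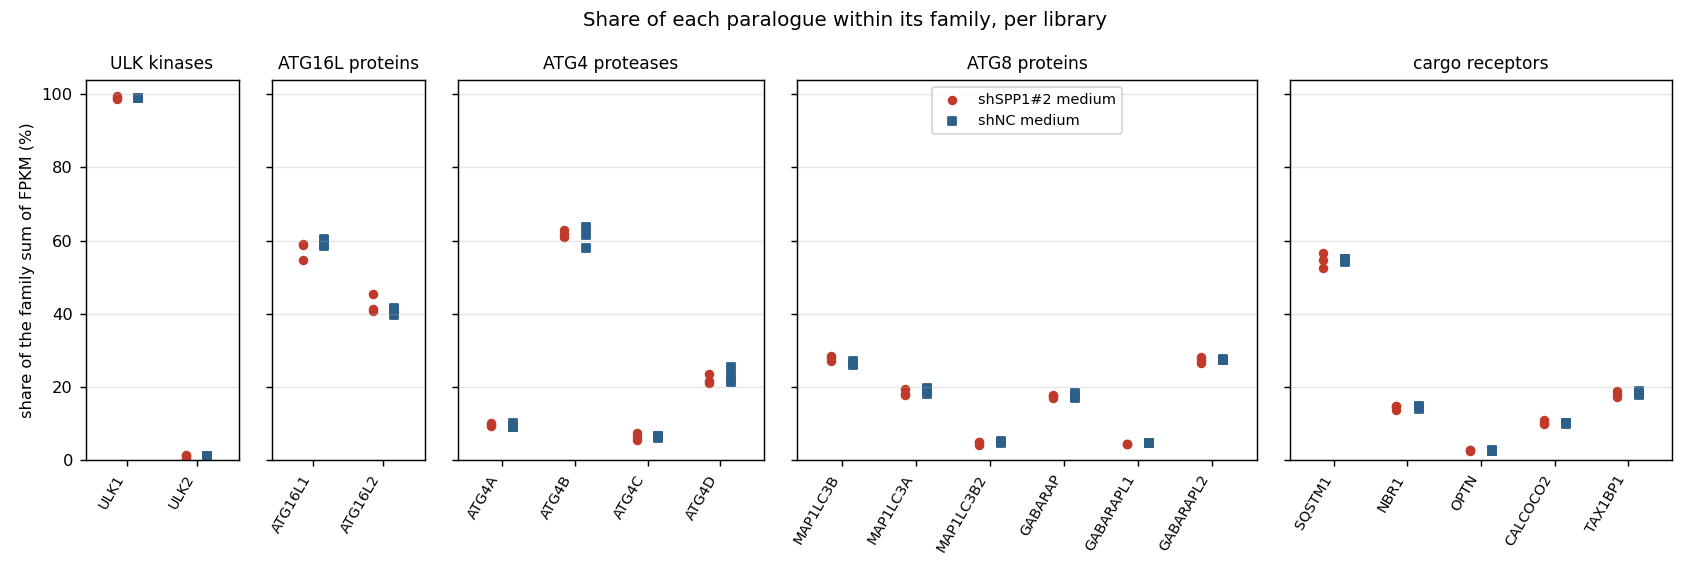
Share of each transcript in the FPKM sum of its family, in percent, for 5 families, with red circles for the 3 libraries in shSPP1#2 medium and blue squares for the 3 in shNC medium. ULK1 holds nearly all of its family, and the 6 ATG8 transcripts are spread from 4.16% to 28.4%. The media overlap except for the small share of GABARAPL1, whose own FPKM values overlap.

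The deposited values also carry a trace of the isoform mix. Estimated counts divided by FPKM and by the library total give the effective length that the authors' program used for a gene in that library, and it moves when the mix of isoforms is estimated differently. Of the 37 members with at least 1 FPKM in every library, 1 was longer in all libraries of shSPP1#2 medium and 3 were shorter, beside 5.16% and 4.86% of all such genes. ATG7 was the longer one, at 2814, 2824 and 2879 bases in shSPP1#2 medium, against 2784, 2752 and 2771 bases in shNC medium, a mean difference of 2.52%. VGLL4 on the opposite strand covers 18.1% of the exonic bases of ATG7, and its part in this difference was not tested. The shorter ones differed by -0.66% (RB1CC1), -0.28% (WIPI2) and -1.02% (ATG4A). The effective length of UVRAG varied by 6.0% and that of ATG10 by 10.5% over the 6 libraries (coefficient of variation). The log2 fold change of UVRAG was -0.02 on counts in edgeR and 0.04 on log2(FPKM + 1) in limma, which also differ in scaling and test, and the part of the length in this was not tested.

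Other genes of the pathway, 96 in 7 lists, were looked at beside the members. Of these 95 were measured and 90 tested, and edgeR called none. At an unadjusted p below 0.05, 6 were higher and 1 was lower in shSPP1#2 medium, beside 3.45% and 3.39% of all genes. Groups were apart in CPM for 7 upward and 3 downward, beside 5.63% and 5.5% of all genes. The median log2 fold change was 0.02, with 51 positive and 39 negative. By list, the medians were 0.03 for upstream signaling (14 of 21 positive), 0.01 for transcription factors (5 of 8), 0.02 for partners of the class III PI3K complex (7 of 11), -0.0032 for other membrane supply genes (5 of 10), -0.0038 for other ATG8 and conjugation genes (3 of 6), 0.04 for other cargo receptors (14 of 19) and -0.02 for fusion genes (4 of 16).

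**Figure D4:**
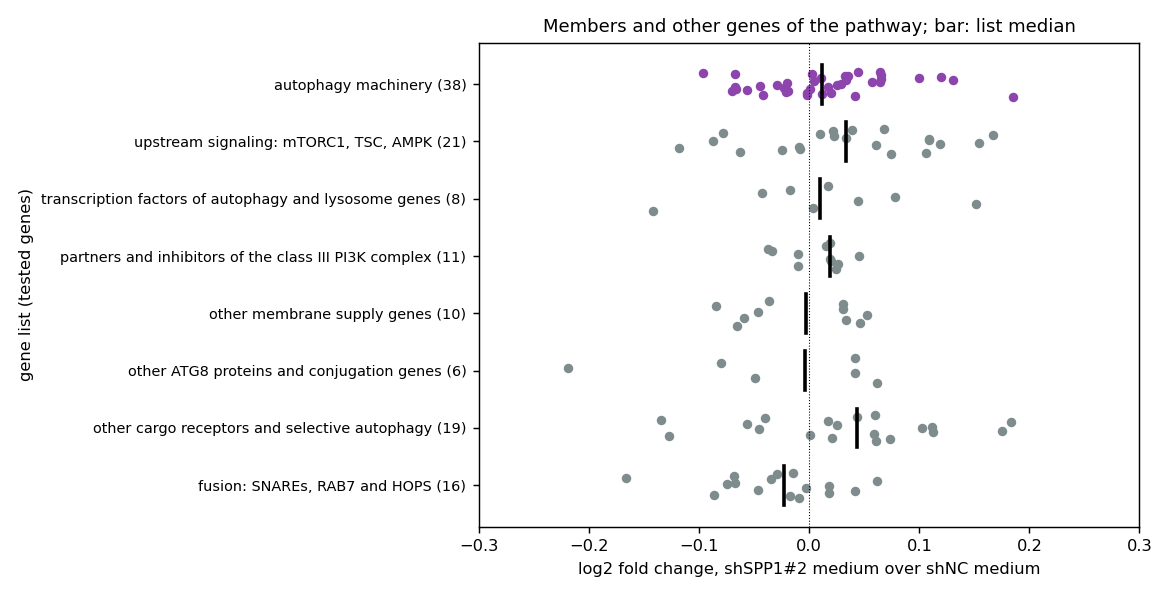
Log2 fold change, shSPP1#2 medium over shNC medium, of each tested gene of the autophagy machinery (purple) and of 7 lists of other pathway genes (grey), with the list median as a black bar and the number of tested genes in parentheses. The list medians lie between -0.02 and 0.04.

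Upstream of ULK1, mTORC1 holds autophagy back when amino acids are plentiful. MTOR, its kinase, measured 8.65, 7.94 and 8.45 FPKM in shSPP1#2 medium, against 8.36, 7.70 and 8.79 FPKM in shNC medium, with a log2 fold change of 0.01. MLST8, a subunit of both mTOR complexes, measured 33.98, 36.2 and 32.9 FPKM in shSPP1#2 medium, against 32.0, 31.1 and 29.3 FPKM in shNC medium. Its groups did not overlap, and the log2 fold change was 0.17 (adjusted p = 0.566 in edgeR). SESN2, a leucine sensor that restrains mTORC1, measured 22.9, 22.9 and 20.9 FPKM in shSPP1#2 medium, against 20.2, 20.2 and 19.4 FPKM in shNC medium. Its groups did not overlap either, and the log2 fold change was 0.15 (adjusted p = 0.571 in edgeR).

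Among the other receptors, SQSTM1 measured 128.8, 144.4 and 136.9 FPKM in shSPP1#2 medium, against 133.0, 134.0 and 134.8 FPKM in shNC medium. The libraries in shSPP1#2 medium spanned those in shNC medium, and the log2 fold change was 0.02 (95% interval -0.08 to 0.13, adjusted p = 0.962 in edgeR). WDFY3, a large adaptor for aggregates, had a log2 fold change of 0.17 (adjusted p = 0.512 in edgeR), and the receptors of endoplasmic reticulum RTN3 and CCPG1 had 0.11 each (adjusted p = 0.633 and 0.709 in edgeR). VAMP8, the lysosomal SNARE partner of STX17, was the only pathway gene lower at an unadjusted p below 0.05. VAMP8 measured 110.6, 115.3 and 105.5 FPKM in shSPP1#2 medium, against 126.9, 127.9 and 115.9 FPKM in shNC medium. The groups were just apart in FPKM but overlapped in CPM, and the log2 fold change was -0.17 (95% interval -0.28 to -0.05, adjusted p = 0.560 in edgeR).

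**Figure D5:**
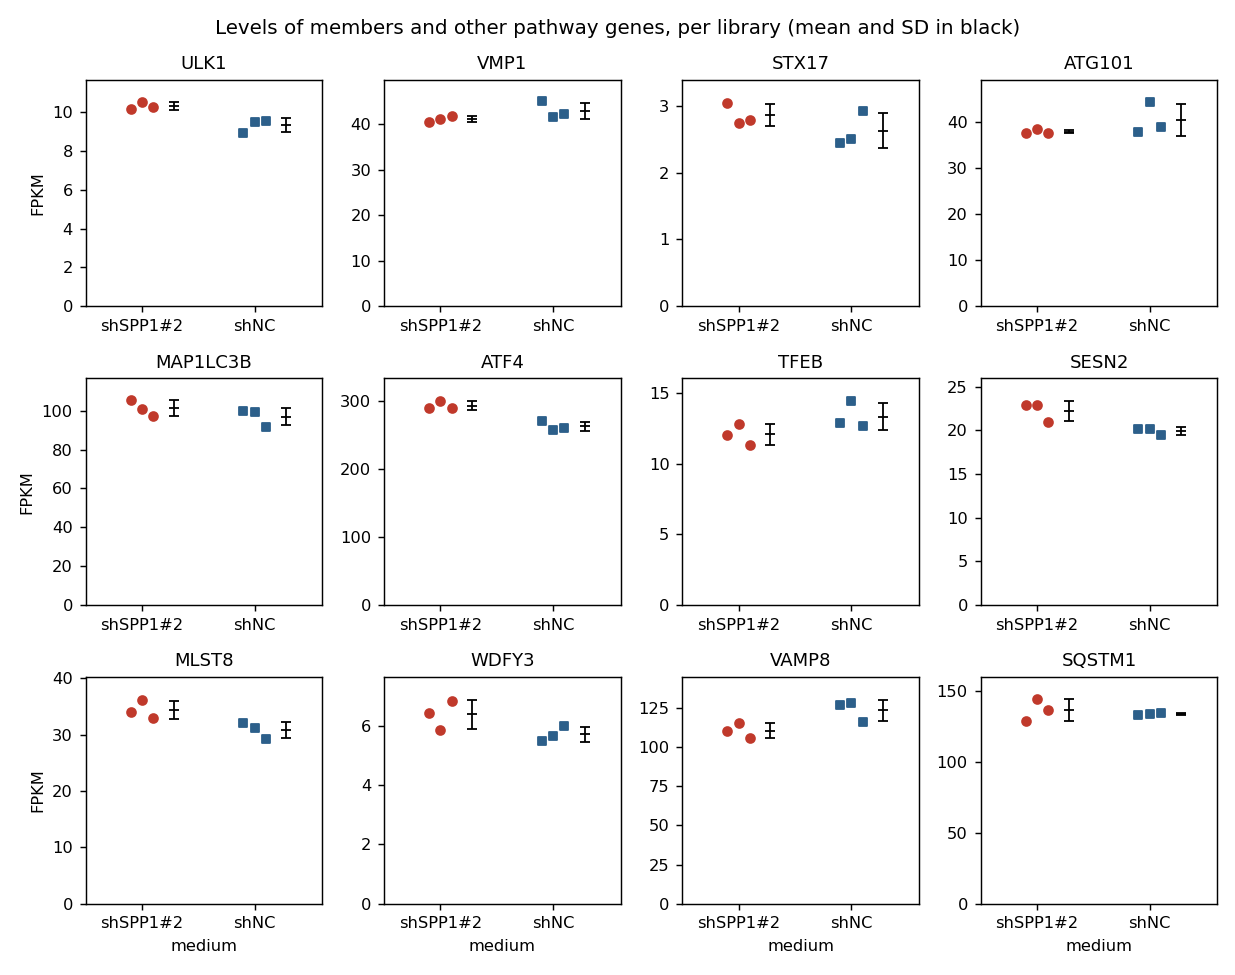
FPKM per library of 12 members and other pathway genes, with red circles for shSPP1#2 medium, blue squares for shNC medium and black bars for mean and SD (n = 3). ULK1, ATF4, SESN2 and MLST8 lie higher and VAMP8 lower in shSPP1#2 medium without overlap, none past the adjusted threshold in edgeR, while VMP1, STX17, ATG101, MAP1LC3B, TFEB, WDFY3 and SQSTM1 overlap.

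Transcription factors known to drive autophagy genes were measured as well. ATF4, the factor of the integrated stress response, had the smallest p of the other pathway genes. ATF4 measured 290.0, 300.6 and 289.3 FPKM in shSPP1#2 medium, against 270.5, 256.9 and 260.6 FPKM in shNC medium. All libraries in shSPP1#2 medium lay above those in shNC medium, with a log2 fold change of 0.15 (95% interval 0.06 to 0.24, adjusted p = 0.486 in edgeR). DESeq2 called it at an adjusted p of 0.0344, but gave an adjusted p to only 1893 of the 17480 genes it tested, against 13555 in edgeR. Over all alternatives its adjusted p ran from 0.0344 to 1.0. TFEB, the master regulator of lysosome genes, measured 12.1, 12.8 and 11.4 FPKM in shSPP1#2 medium, against 12.8, 14.4 and 12.7 FPKM in shNC medium. Its groups overlapped, with a log2 fold change of -0.14 (95% interval -0.30 to 0.01, adjusted p = 0.764 in edgeR). Both factors are also controlled at the level of translation or location, which was not measured. Of 12 autophagy genes that depend on ATF4 or CHOP in amino acid starved mouse fibroblasts, all but SQSTM1 of them members, 8 were positive and 4 negative here, with a median of 0.02 and none called. Of 7 that TFEB induces in HeLa cells, 6 were tested, 2 were positive and 4 negative, with a median of -0.0060 and none called.

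The promoters of the members were searched for the letters these factors are known to bind. RefSeq promoter sequences (GRCh38.p14, 250 bases before to 50 bases after the start) matched 33 of 38 members by symbol. CACGTG, the core of the sites of TFEB and its relatives, was in 2 of 33 (6.06%), against 7.44% of all 27326 promoters. TGATGNAA, the C/EBP-ATF response element, was in 0, against 3.67%. TGACGTCA, the cAMP response element, was in 1 (3.03%), against 1.98%, and GTAAACA, a FOXO site, in 1 (3.03%), against 3.41%. Both strands were searched, and no matches of different motifs overlapped. The windows of 60 bases with the matches are shown so that these letters can be seen in place, with the motif in capitals and the transcribed strand 5′ to 3′. ULK1, the member of smallest p, is shown beside them and holds none of the 4 motifs in its whole promoter sequence. The windows lie at chr3:112561963-112562022 (minus strand) for ATG3, chr14:55411831-55411890 (minus strand) for ATG14, chr12:10212817-10212876 (plus strand) for GABARAPL1, chr17:48830795-48830854 (plus strand) for CALCOCO2 and chr12:131894562-131894621 (plus strand) for ULK1.
ATG3: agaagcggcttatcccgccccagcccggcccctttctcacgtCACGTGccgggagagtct
ATG14: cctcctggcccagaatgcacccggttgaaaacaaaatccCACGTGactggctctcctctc
GABARAPL1: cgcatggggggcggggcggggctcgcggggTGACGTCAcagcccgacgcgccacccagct
CALCOCO2: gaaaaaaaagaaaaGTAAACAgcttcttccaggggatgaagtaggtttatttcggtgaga
ULK1: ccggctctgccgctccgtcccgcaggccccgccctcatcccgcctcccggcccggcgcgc

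The CACGTG of ATG3 begins 18 bases before the RefSeq start, with another copy 6 bases after it. That of ATG14 begins 21 bases before its RefSeq start. The TGACGTCA of GABARAPL1 begins 30 bases and the GTAAACA of CALCOCO2 226 bases before the RefSeq start. GENCODE places these starts elsewhere. The windows of ATG3 and GABARAPL1 lie inside the GENCODE genes (112532509 to 112562046 and 10212458 to 10223130). The GENCODE gene of ATG14 (55366392 to 55411858) reaches into its window and covers its CACGTG. The log2 fold changes of these 4 genes were 0.0005 for ATG3, -0.03 for ATG14, -0.07 for GABARAPL1 and 0.07 for CALCOCO2, all with intervals that include 0. A match of letters is not a measured binding site.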

How the data were processed

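Polyadenylated RNA was sequenced on the DNBSEQ platform after extraction with Trizol, per the labels' protocols. The authors deposited estimated counts and FPKM values per gene, 1 column per library, for 17513 genes with Entrez number and symbol. Per the submitters' processing notes the tools were RSEM, Bowtie2 2.2.5 and HISAT2 2.0.4 on build GRCh38.p13, in no stated order. In the deposited estimated counts 78.9% to 80.4% of values per library were not whole (tolerance 0.005), so reads of overlapping genes and near copies can be divided between genes. The deposited FPKM values followed counts per length per library total, with a length that changes with the estimated isoform mix. No source used here states the annotation release, the strand setting or filters. A further 20 lines held stray text and were dropped.

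Estimated counts were rounded and genes filtered with filterByExpr (13555 kept), scaled by TMM (factors 0.988 to 1.01) and tested for shSPP1#2 minus shNC by edgeR 4.0.16 in R 4.3.3 (quasi-likelihood test), with Benjamini-Hochberg adjustment over all tested genes and a threshold of 0.05. The biological coefficient of variation was 4.54%. Depth per library was 18113591 to 20626346 estimated counts. The labels do not say whether replicates were separate cultures. The p-values therefore reflect spread between samples that may be technical alone.

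Alternatives were scaling by RLE or by the total count, testing without the low-count filter, a replicate block, DESeq2 1.42.0, limma 3.58.1 on log2(FPKM + 1) and log2(FPKM + 0.1), each library left out in turn, and levels without length. Values per library were given for the most abundant member and the member of smallest p in each step, for members with an unadjusted p below 0.05, and among other pathway genes for up to 8 of smallest p (some by fold change only) plus SQSTM1, TFEB and MTOR. Positions and overlaps came from GENCODE v29 (GRCh38) by Entrez number, near copies from blastn 2.17.0 (at least 90% identity over at least 200 bases), and promoters from RefSeq (GRCh38.p14). Plots were drawn with matplotlib 3.10.9. The members and lists were chosen with earlier results of these data known.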

Additional observations from a re-analysis of the deposited data

How the results depend on the processing

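No member was called under any of the 13 alternatives, but DESeq2 gave an adjusted p to only 5 of the 38 members (1893 of 17480 genes), so it could call no other member. The smallest adjusted p of a member was 0.306 (ULK1, edgeR with a replicate block). The median log2 fold change of the members stayed between 0.0073 and 0.0204. Under the replicate block 2 members (ULK1 and RB1CC1) had an unadjusted p below 0.05, and under DESeq2 0 had, while DESeq2 called 1 of the other pathway genes (ATF4). Leaving out 1 library in turn gave 1 to 3 members at an unadjusted p below 0.05, with 3 without shNC replicate 3 (ULK1, RB1CC1 and STX17), and only ATG101 without shNC replicate 1 and only RB1CC1 without shSPP1#2 replicate 2. Over all genes the block called 59, DESeq2 25 and the test with no low-count filter 18. The fit without shSPP1#2 replicate 2 called 10, the other fits with 1 library left out 1 to 4, and limma on log2(FPKM + 0.1) 1. The remaining alternatives called 0. Replicate numbers were not treated as pairs in the main test, as no label says that equal numbers share a culture or day. The deviations of same-numbered libraries correlated at 0.194, 0.286 and 0.089 over 10616 genes. Those of libraries with different numbers correlated at -0.26, -0.18, -0.164, -0.062, -0.013 and 0.117. The last value was for shSPP1#2 replicate 3, which correlated best with shNC replicate 1. Within each medium the deviations sum to 0 for every gene, so these correlations depend on each other. Positive values between equal numbers thus bring mostly negative ones between different numbers. Whether equal numbers mark a shared batch was not tested. The direction held in every alternative for 20 members, and the cause of the reversals was not tested. Under total-count scaling the log2 fold change was 0.003 for PIK3R4 and 0.0025 for WIPI1, and under DESeq2 -0.0002 for ATG3. Under limma on log2(FPKM + 1) and log2(FPKM + 0.1) it was 0.0012 and 0.0013 for PIK3R4, 0.0351 and 0.0423 for UVRAG, 0.0017 in both for WIPI1, -0.0094 and -0.0096 for ATG3, 0.0023 and 0.0025 for ATG4B, and -0.0065 and -0.0105 for ATG4C. With 1 library left out in turn, the lowest and highest log2 fold changes were -0.3665 and 0.2839 for ULK2, -0.0444 and 0.0199 for PIK3R4, -0.078 and 0.0132 for ATG14, -0.0971 and 0.0439 for UVRAG, -0.0513 and 0.0564 for ATG9A, and -0.0289 and 0.048 for ATG2A. They were -0.044 and 0.0202 for WIPI1, -0.0375 and 0.0378 for WIPI2, -0.0299 and 0.0306 for ATG3, -0.0084 and 0.1159 for ATG12, -0.0545 and 0.1107 for ATG16L2, and -0.0792 and 0.0684 for ATG4A. They were -0.0375 and 0.0072 for ATG4B, -0.0926 and 0.0866 for ATG4C, -0.1535 and 0.0288 for ATG4D, -0.0808 and 0.0184 for GABARAP, -0.0707 and 0.0329 for GABARAPL2, and -0.0096 and 0.0381 for TAX1BP1. ATG10 was 0.0498 on log2(FPKM + 1) and 0.0706 on log2(FPKM + 0.1), against 0.1848 on counts. Without length, 6 of the 10 most abundant members by FPKM stayed among the 10 most abundant. Depth limits ULK2 and ATG10 most, and in bulk RNA no value speaks of protein or of autophagic flux.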
